A study of Mus musculus with 6 samples.

Results

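The SERCA pumps and their best known small regulators were examined in differentiating muscle cells: *Atp2a1*, *Atp2a2* and *Atp2a3*, which encode the pumps SERCA1, SERCA2 and SERCA3, and *Sln* and *Pln*, which encode sarcolipin and phospholamban. These 5 genes, of the 55401 in the deposited matrix, were chosen by name for their function. All 5 had a row, and 3 of them, the pump genes, passed the filter on low counts and were tested. The cells were C2C12, mouse myoblasts of an established line whose cells fuse into myotubes, harvested 2 d post differentiation in medium with 2% horse serum. The control group (3 libraries, labelled wild type) was described in the methods as mock cells that received a plasmid with Cas9 and ZsGreen but no guide matching a gene. The *Phf2* KO group (3 libraries) received a pool of 4 such plasmids, each with a guide against *Phf2*, a histone demethylase gene. Both groups were sorted for ZsGreen and expanded for 6 days without cloning, so each group was a single mixed pool of cells and its 3 libraries were wells of a single experiment. The p-values therefore measured the spread between wells, and a difference between the pools cannot be told apart from an effect of the knockout.

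SERCA pumps use ATP to return calcium from the cytosol into the sarcoplasmic reticulum, which ends a contraction and refills the store for the next. SERCA1 is the adult fast-fibre pump, SERCA2 serves heart and slow fibres and, as another isoform, most other cells, and SERCA3 is typical of blood, endothelial and some epithelial cells. Sarcolipin and phospholamban are short proteins with a single membrane-spanning helix that sit against the pump and lower its activity; phosphorylation of phospholamban relieves the inhibition.

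Each library held between 52526109 and 67502788 estimated counts. *Phf2* itself had 102, 95.5 and 105 CPM (TMM-scaled counts, relative to library size) in the controls and 41.1, 37.6 and 38.6 CPM in the KO libraries, so the labels matched the targeted gene (log2 fold change -1.37, adjusted p = 8.32e-09 by the quasi-likelihood test of edgeR). The skeletal muscle markers *Myod1*, *Myog*, *Des*, *Acta1*, *Ckm*, *Mb* and *Myh3* summed to 5861 to 6913 TPM (a level relative to transcript length and library size) in the controls and 4749 to 5233 TPM in the KO libraries, of which *Acta1*, skeletal actin, made up 57.9%.

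The coding sequences of the small regulators are shown to give the size of these proteins: sarcolipin has 31 codons and phospholamban 52. Reads were counted over all exons, which cover 1318 bases in *Sln* and 2759 bases in *Pln*. Both are read from GENCODE M21 (build GRCm38, the same assembly as mm10) on the plus strand, 5′ to 3′, without the stop codon and with the start codon in capitals. *Sln* (ENSMUSG00000042045) lies at chr9:53850164-53854560 with 1 transcript, and its coding bases span chr9:53853473-53853565. *Pln* (ENSMUSG00000038583) lies at chr10:53337667-53345987 with 6 transcripts, and its coding bases span chr10:53343864-53344019.
Sln: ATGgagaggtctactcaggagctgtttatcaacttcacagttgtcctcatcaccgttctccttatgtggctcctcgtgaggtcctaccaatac
Pln: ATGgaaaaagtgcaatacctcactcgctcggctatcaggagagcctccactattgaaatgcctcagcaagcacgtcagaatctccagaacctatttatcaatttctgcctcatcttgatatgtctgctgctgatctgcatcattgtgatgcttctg

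The pump genes are paralogs, so reads could in principle be shared between them. *Atp2a1* (ENSMUSG00000030730) lies at chr7:126445858-126463108 on the minus strand, and its longest transcript has 23 exons and 994 codons. *Atp2a2* (ENSMUSG00000029467) lies at chr5:122453513-122502225 on the minus strand and encodes up to 1044 codons. *Atp2a3* (ENSMUSG00000020788) lies at chr11:72961169-72993044 on the plus strand and encodes up to 1038 codons. Over their aligned coding bases *Atp2a1* and *Atp2a2* were 75.2% identical, *Atp2a1* and *Atp2a3* 74.0%, and *Atp2a2* and *Atp2a3* 70.4%. The longest stretch that all 3 pumps held in common within these alignments is shown as the place where short reads are hardest to assign. It lies in exon 16 of *Atp2a1* (chr7:126448186-126448229, minus strand), exon 15 of *Atp2a2* (chr5:122460000-122460043, minus strand) and exon 15 of *Atp2a3* (chr11:72981881-72981924, plus strand).
Shared by Atp2a1, Atp2a2 and Atp2a3: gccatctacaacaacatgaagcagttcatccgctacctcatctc
This stretch has 44 bases, the longest run shared by any pair has 53, and the reads had 150, so no read could lie wholly inside an identical run of the annotated coding sequence.

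In the control libraries the order of levels was *Atp2a1*, *Atp2a2*, *Atp2a3* and *Pln*, with *Sln* at 0. The control TPM was 505 ± 71.1 (SD, n = 3) for *Atp2a1* and 242 ± 8.71 for *Atp2a2*, and every library, control or KO, kept *Atp2a1* above *Atp2a2*. *Atp2a3* followed at 0.293 ± 0.0812 TPM and *Pln* at 0.233 ± 0.0972 TPM, and these low neighbours did not differ beyond their spread in the controls. *Atp2a1* ranked between 237 and 309 among all genes by TPM in the controls and between 387 and 443 in the KO libraries. *Atp2a2* ranked between 576 and 624 in the controls and between 608 and 687 in the KO libraries.

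To ask whether the loss of *Phf2* went with a change in the pumps, each gene was read from a single fit over the 17310 genes that passed the filter. In that fit 6.48% of genes passed an adjusted p of 0.05, 3.26% lower and 3.22% higher in the KO, and 2 of the 3 pump genes passed: *Atp2a2* lower and *Atp2a3* higher. In a fit with the replicate number as an added block 7.6% of genes passed, 3.86% lower and 3.74% higher, and 2 of the 3 pump genes passed there too, *Atp2a1* and *Atp2a2*, both lower. All 3 pump genes had CPM groups that did not overlap, as did 25.1% of the genes tested, 12.2% lower and 12.9% higher in the KO. The pump genes thus did not all change in the same direction, and the most abundant of them, *Atp2a1*, missed the threshold in the quasi-likelihood fit without the block. Without a block it passed with exactTest of edgeR (adjusted p = 1.48e-06), DESeq2 (1.91e-04) and limma-voom (0.00467). The paper used exactTest and lists *Atp2a1* in its downregulated KEGG pathways of cardiac muscle contraction, calcium signaling and adrenergic signaling in cardiomyocytes.

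*Atp2a1* had 940, 816 and 703 CPM in control replicates 1, 2 and 3 and 573, 489 and 542 CPM in the KO replicates. Every KO library lay below every control, and the controls were more spread out than the KO libraries. The mean was 820 ± 118 CPM (SD, n = 3) in the controls and 535 ± 42.3 CPM in the KO, or 65.2% of control. The log2 fold change was -0.62 with a standard error of 0.13, and the adjusted p of 0.0609 (edgeR quasi-likelihood test) was just above the threshold. The p did not follow from that standard error alone. Unadjusted, it was 0.00438 by this test, against 0.00271 for *Atp2a2*, whose change was smaller relative to its standard error. Neither the labels nor the methods describe a pairing, but same-numbered libraries deviated together from their group means. A quasi-likelihood fit that blocked on the replicate number gave a log2 fold change of -0.61 with an adjusted p of 0.00928. Within the numbers the log2 differences were -0.72, -0.74 and -0.37, so replicate 3, where the control was lowest, gave the smallest. Leaving out control replicate 1 gave -0.51 with an adjusted p of 0.0221 and leaving out control replicate 3 gave -0.72 with 0.00317. The other 4 fits without a library did not pass, with adjusted p of 0.161 without control replicate 2 and 0.148, 0.109 and 0.201 without KO replicates 1, 2 and 3. The 3′ end of *Atp2a1* overlaps exons of *Rabep2* on the opposite strand, which had 33.2 ± 4.14 CPM in the controls and 32.3 ± 2.82 CPM in the KO.

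*Atp2a2* had 495, 498 and 471 CPM in the controls and 426, 443 and 451 CPM in the KO libraries. The groups did not overlap, but the lowest control and the highest KO library stood close together. The means were 488 ± 14.8 and 440 ± 13.2 CPM (SD, n = 3), and the KO mean was 90.1% of that of the controls. On the log2 scale the fold change was -0.15 with a standard error of 0.04 and an adjusted p of 0.0445 (edgeR quasi-likelihood test), a change smaller in size than the value of *Atp2a1*. By TPM the groups overlapped, with 248, 246 and 232 TPM in the controls and 210, 221 and 232 TPM in the KO. The call also rested on single libraries: the adjusted p rose to 0.12 without control replicate 1, 0.199 without control replicate 2, 0.12 without KO replicate 1, 0.138 without KO replicate 2 and 0.0565 without KO replicate 3.

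*Atp2a3* had 32, 41 and 38 estimated counts in the controls and 164, 89 and 61 in the KO libraries, where a read pair makes about 4 counts. In CPM these were 0.561, 0.704 and 0.653 against 2.67, 1.69 and 0.901. The KO libraries were all higher but far apart, with replicate 1 the highest and replicate 3 not far above the controls. The means were 0.639 ± 0.0724 and 1.75 ± 0.884 CPM (SD, n = 3), and the log2 fold change was 1.45 with a standard error of 0.38 (edgeR quasi-likelihood test, adjusted p = 0.035). With the block the value was 1.33 and the adjusted p of 0.0507 no longer passed. Without KO replicate 1 the log2 fold change was 1.01 with an adjusted p of 0.192. Leaving out control replicates 1, 2 or 3 or KO replicate 2 also lost the call, with adjusted p of 0.117, 0.113, 0.0817 and 0.0949. By TPM the groups overlapped, at 0.217, 0.284 and 0.378 in the controls and 1.41, 0.734 and 0.377 in the KO. Even in the KO library with most *Atp2a3*, replicate 1, the gene made up 0.251% of the pump TPM.

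Of 7 markers of blood and endothelial cells, where SERCA3 is best known, 5 (*Ptprc*, *Cd3e*, *Pecam1*, *Cdh5* and *Kdr*) had a mean under 0.1 TPM. *Itga2b* had 4.60 ± 3.77 TPM in the controls and 2.77 ± 0.306 TPM in the KO, and *Lyz2* 0.392 ± 0.0249 and 0.494 ± 0.191 TPM. *Atp2a3* itself had means of 0.293 and 0.840 TPM. The 7 markers summed to 2.62 to 9.42 TPM in the controls and 3.08 to 3.79 TPM in the KO, with *Itga2b* making up 86.7%. Neither of the 2 that could be tested passed or had an unadjusted p under 0.05 by the quasi-likelihood test of edgeR, exactTest, DESeq2 or limma-voom. In every library the reads over *Atp2a3* were assembled only into fragments on its strand, 2 to 4 of them, and in KO replicate 1 a fragment ran over chr11:72975281-72992974 and held 4154 annotated exon bases.

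**Figure D1:**
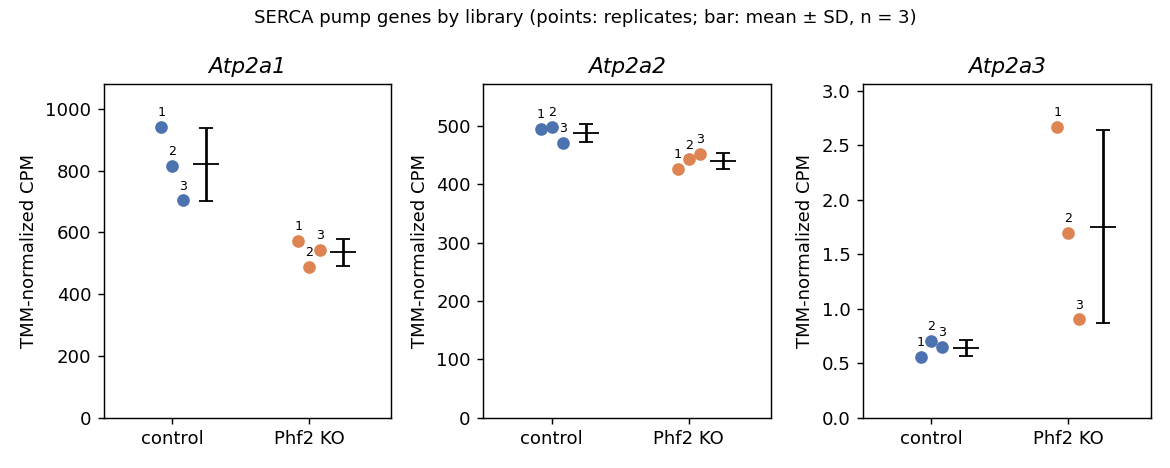
TMM-normalized CPM of the 3 pump genes in each library, with an axis from 0 in every panel. Points are libraries numbered by replicate, and the bar is the mean with its SD (n = 3). The *Atp2a1* points lie at 703 to 940 CPM in the controls and 489 to 573 CPM in the KO, the *Atp2a2* groups lie close together, and the *Atp2a3* KO libraries spread from 0.901 to 2.67 CPM.

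The upstream regions of *Atp2a1* and *Atp2a3* are shown as those of the pump genes with a log2 fold change below and above 0; *Atp2a2* and *Sln* had no entry in the table used, and 3 of the 5 members did. The sequences are from RefSeq on GRCm38.p6, 5′ to 3′ on the strand of the gene, and end at the last base before the annotated first exon. That of *Atp2a1* is chr7:126463109-126463323, minus strand. It has 215 bases, because the 35 bases between its end and the RefSeq start lie inside the GENCODE gene and are not shown. That of *Atp2a3* is chr11:72960919-72961168, plus strand. Capitals mark an E-box, CANNTG, the motif class bound by the myogenic factors.
Atp2a1: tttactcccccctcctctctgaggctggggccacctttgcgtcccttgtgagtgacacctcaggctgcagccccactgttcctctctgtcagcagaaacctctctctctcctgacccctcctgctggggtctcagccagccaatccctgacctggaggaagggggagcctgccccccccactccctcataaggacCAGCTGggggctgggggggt
Atp2a3: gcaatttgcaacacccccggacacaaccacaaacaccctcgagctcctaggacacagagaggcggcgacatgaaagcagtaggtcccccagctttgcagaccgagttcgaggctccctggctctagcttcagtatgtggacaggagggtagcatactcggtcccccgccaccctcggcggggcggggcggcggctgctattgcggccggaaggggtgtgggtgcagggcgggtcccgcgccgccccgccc
The *Atp2a1* window held an E-box, CAGCTG, 55 bases before the RefSeq start, and the *Atp2a3* window held none. In the *Pln* window the E-box CACATG stood 59 bases before the start. An E-box occurred in 66.2% of the 32851 promoter windows of the table, so its presence sets neither gene apart. The *Atp2a3* window held 5 matches to GGGCGG or its reverse complement, some of them overlapping, a motif found in 32.7% of windows. Motifs were searched on both strands in the 250 bases before each start.

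The composition of the pump pool was taken from TPM, which is per length and can be summed. The 3 pump genes together had 827, 746 and 670 TPM in the controls and 562, 525 and 578 TPM in the KO libraries. *Atp2a1* made up 70.0%, 66.9% and 65.3% of that sum in the controls and 62.3%, 57.8% and 59.7% in the KO. Every KO library had a smaller *Atp2a1* share than every control. The mean share was 67.4% ± 2.39 in the controls and 60.0% ± 2.24 in the KO (SD, n = 3), a difference of -7.42 percentage points with p = 0.1 by the two-sided exact permutation test, the smallest p that 3 libraries against 3 can give. *Atp2a2* made up 32.6% ± 2.37 in the controls and 39.9% ± 2.31 in the KO, and the ratio of *Atp2a1* to *Atp2a2* went from 2.08 ± 0.23 to 1.51 ± 0.145. *Atp2a3* made up 0.0403% ± 0.0153 of pump TPM in the controls and 0.152% ± 0.0935 in the KO.

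**Figure D2:**
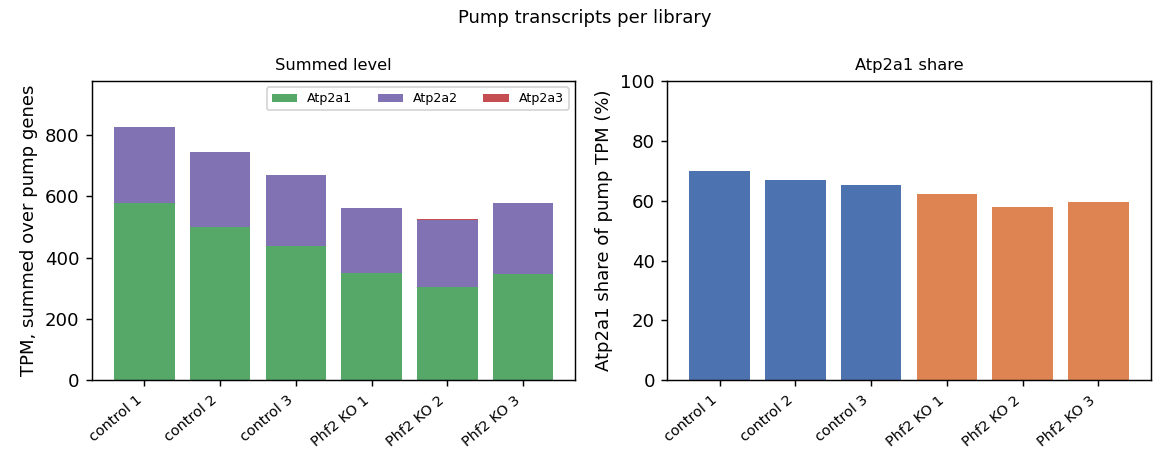
Left, TPM of the 3 pump genes stacked for each library; right, the share of *Atp2a1* in that sum, in percent, in blue for controls and orange for *Phf2* KO. The sums are 670 to 827 TPM in the controls and 525 to 578 TPM in the KO, the *Atp2a3* band is too thin to see, and the *Atp2a1* share is lower in each KO library than in each control.

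Of the 7 skeletal muscle markers 5 passed, all lower, against 3.26% lower and 3.22% higher of all genes tested. The median log2 fold change of the list was -0.37 against -0.00096 over all genes tested. Without control replicate 1 or KO replicate 3 the count was 3, as in the TPM fits. Set against the summed markers of the same library, a measure added after the values were seen, *Atp2a1* had 83.7, 74.8 and 74.6 TPM per 1000 marker TPM in the controls and 66.9, 63.9 and 68.9 in the KO. *Atp2a2* had 35.9, 36.9 and 39.6 TPM per 1000 marker TPM in the controls and 40.2, 46.5 and 46.3 in the KO. On this scale neither gene's groups overlapped, and *Atp2a1* was lower and *Atp2a2* higher in the KO (both p = 0.1, exact permutation test, the smallest possible). In bulk libraries, fewer fused cells and less RNA of a gene per cell cannot be told apart. In the paper, fusion index, myotube area and myotube diameter did not differ significantly between the groups at 7 d, later than these libraries. Fibroblast and smooth muscle markers summed to 3800 to 3871 TPM in the controls and 4335 to 4396 TPM in the KO, 83.4% of it *Acta2*, smooth muscle actin. Of these 7 markers 1 was lower and 1 higher past the threshold, against the same 3.26% and 3.22% of all genes tested. The higher was *Acta2*, whose call was lost without KO replicate 2, with exactTest and in the TPM fits. Their part in the pump values was not tested. Heart muscle markers were low, at 8.11 to 14.9 TPM in the controls and 7.96 to 13.4 TPM in the KO, with *Myl7* and *Ryr2* under 0.1 TPM. Of these 7 heart markers 3 were tested and 1 passed, lower, against 3.26% of all genes tested. It was *Myh6*, a heart myosin also found in some skeletal fibres and 62.2% of the sum. *Myh6* had 22.9 ± 3.88 CPM in the controls and 11.4 ± 0.498 CPM in the KO (edgeR quasi-likelihood test, adjusted p = 1.79e-04), and this call was lost in the TPM fits.

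*Sln* was listed at 0 in all 6 libraries, in the counts and in TPM, and no transcript was assembled over it. A count of 0 allowed up to 3 read pairs, or 12 estimated counts, which was 0.178 to 0.228 CPM depending on the library, for counting error only. Sarcolipin mRNA was therefore not detectable at this depth in either group, and no fold or test was available.

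*Pln* had 15, 10 and 18 estimated counts in the controls and 0, 0 and 4 in the KO libraries. These correspond to fewer than 5 read pairs per library against the limit of 3 that a count of 0 allows, so no fold is given and the gene did not enter the fit. In TPM it was 0.326, 0.132 and 0.241 in the controls and 0.0305, 0 and 0.129 in the KO, where KO replicate 3 nearly reached control replicate 2 but the groups did not overlap. With no filter the quasi-likelihood test of edgeR gave an adjusted p of 0.2. The whole gene is overlapped by *Cep85l* on the opposite strand, which had 11.3 ± 1.12 CPM in the controls and 14.9 ± 1.90 CPM in the KO, and the strand setting of the counting was not given in the sources used here. The summed TPM of *Sln* and *Pln* was 0.310 ± 0.116 per 1000 pump TPM in the controls and 0.0923 ± 0.116 in the KO (SD, n = 3), with overlapping groups and p = 0.2 by the exact permutation test. From TMM-scaled counts per kb of exons the same measure was 0.289 ± 0.103 and 0.031 ± 0.0537, without overlap and with p = 0.1 by that permutation test, the smallest possible.

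Other single-pass proteins bind the same groove of the pump or act on it. The list held 4 such genes (2 more of its names, *Erln* and *Arln*, are newer symbols of *Smim6* and *1810037I17Rik*), of which 3 were tested and none passed the quasi-likelihood test of edgeR. None had an unadjusted p under 0.05 either, there or with exactTest, DESeq2 or limma-voom. *1810037I17Rik*, which encodes another-regulin, was by far the most abundant, at 34.8 ± 3.70 TPM in the controls and 40.6 ± 3.10 TPM in the KO (log2 fold change 0.21, adjusted p = 0.258). *Mrln*, which encodes myoregulin, an inhibitor found in skeletal muscle, had 6.51 ± 0.958 and 6.20 ± 1.78 TPM (log2 fold change -0.17, adjusted p = 0.823). *Smim6*, which encodes endoregulin, had 1.55 ± 1.01 and 1.13 ± 0.374 TPM (adjusted p = 0.689). *Strit1*, which encodes DWORF, a peptide that displaces the inhibitors, had 0 estimated counts in each control and 4, 6 and 0 in the KO, under the limit of 12. Myoregulin mRNA thus stood well above phospholamban and sarcolipin mRNA by TPM in both groups, though on few reads. *Mrln* had 79, 73 and 99 estimated counts in the controls and 68, 88 and 73 in the KO.

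**Figure D3:**
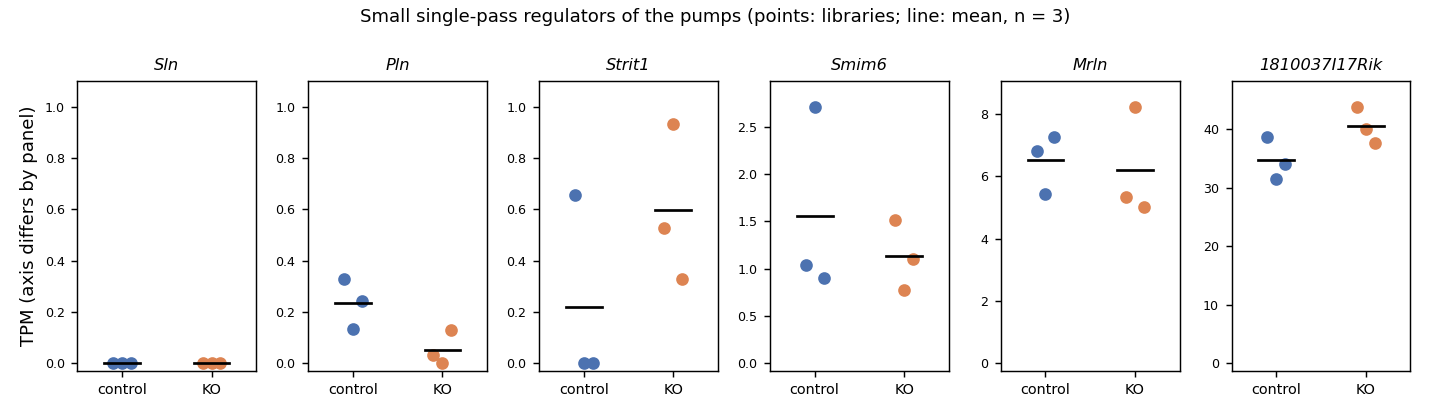
TPM of *Sln*, *Pln* and 4 other single-pass regulator genes in each library, with points for libraries, a line for the mean (n = 3) and an axis of its own in every panel. *Sln* is at 0 throughout, *Pln* and *Strit1* stay under 1 TPM, and the groups overlap for *Mrln*, *Smim6* and *1810037I17Rik*.

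The kinases and phosphatases that set phospholamban phosphorylation, with proteins that bind it, made up a list of 12 genes, of which 11 were tested and 1 passed in each direction, against 3.26% lower and 3.22% higher of all genes tested. *Camk2a*, a calcium/calmodulin-dependent kinase subunit, was the lower gene (69.7 ± 8.15 to 41.0 ± 1.28 CPM, log2 fold change -0.77, adjusted p = 9.35e-05). *Ppp1cb*, a catalytic subunit of protein phosphatase 1, was the higher gene (178 ± 4.33 to 214 ± 6.60 CPM, log2 fold change 0.27, adjusted p = 0.00242). *Prkaca*, a catalytic subunit of protein kinase A, did not pass, with a log2 fold change of -0.10 and an adjusted p of 0.212. *Prkacb*, another catalytic subunit, did not pass either and had the opposite sign (0.11, adjusted p = 0.14 by the edgeR quasi-likelihood test). The median over the list was -0.05, and both calls were lost in the TPM fits.

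The counterpart of the pumps is the machinery that releases and stores the calcium they return. Of its 23 genes 14 were lower and 1 was higher past the threshold, against 3.26% and 3.22% of all genes tested, and the median log2 fold change was -0.41. The largest falls among the genes past the threshold were those of *Cacna1s*, the voltage sensor of the T-tubule (-0.74, adjusted p = 1.28e-04), *Ryr3* (-0.70, 7.43e-04) and *Ryr1* (-0.56, 4.45e-04), both calcium release channels, *Hrc*, a calcium-binding protein of the store (-0.64, 5.04e-05), and *Tmem38a*, a counter-ion channel (-0.55, 3.22e-05). The value of *Atp2a1* lay among these, and its standard error of 0.13 was larger than theirs. Ordered by value, *Atp2a2* lay between *Jph2* (-0.33), which passed, and *Cacna2d1* (-0.11), which did not. The general reticulum proteins *Calr* (-0.06, 0.401) and *Calu* (0.09, 0.183) did not pass the edgeR quasi-likelihood test either. *Sri*, which encodes sorcin and is named as the only higher gene, had 61.6 ± 1.45 CPM in the controls and 71.5 ± 1.34 CPM in the KO (adjusted p = 0.0162), and its call was lost without control replicate 2 or KO replicate 2 and in the TPM fits. The TPM fits left 6 and 7 of the 14 lower calls.

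**Figure D4:**
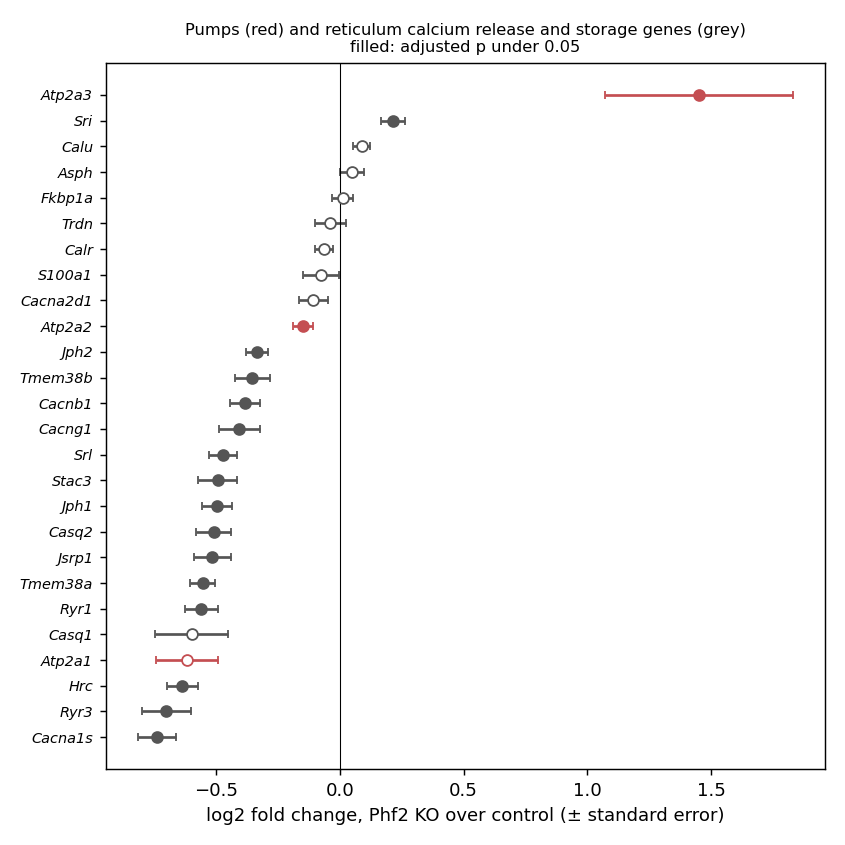
Log2 fold change of *Phf2* KO over control with its standard error for the 3 pump genes (red) and the 23 release and storage genes (grey), ordered by value. Filled points have an adjusted p under 0.05. *Atp2a1* is open at -0.62, next to *Casq1*, which is open too, *Atp2a2* is at -0.15 and *Atp2a3* at 1.45, beyond every release and storage gene.

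Genes that move calcium by other routes formed a list of 20 pumps, exchangers, uptake and entry genes. Of these 17 were tested, 1 passed lower and 1 higher, near the 3.26% and 3.22% of all genes tested, and the median log2 fold change was -0.01. *Itpr3*, a release channel of non-excitable reticulum, was lower (-0.19, adjusted p = 0.0295) and *Stim1*, the sensor of store depletion, was higher (0.26, adjusted p = 0.0129), although in TPM the *Stim1* difference was -0.15. The *Itpr3* call was lost in limma-voom, in both TPM fits and without any 1 of the 6 libraries (adjusted p 0.0585 to 0.135), and the *Stim1* call without control replicate 2 (0.075) or KO replicate 2 (0.0617). The plasma membrane pump *Atp2b1* did not pass (-0.13, 0.205).

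Because SERCA1 and SERCA2 are the fast and slow fibre pumps, fibre-type genes were set beside them. Of 12 fast genes 7 were lower past the threshold and none higher, against 3.26% and 3.22% of all genes tested, with a median log2 fold change of -0.54. The count was 4 with no filter and without control replicate 2, KO replicate 2 or KO replicate 3, and 3 and 4 in the TPM fits. Among them *Myh4* (-1.10, adjusted p = 0.0476), *Myh1* (-0.93, 3.07e-04) and *Myh2* (-0.89, 5.24e-05) are fast myosin heavy chains, and *Myh4* had an adjusted p of 0.0657 in the fit with the block. Of 10 slow genes 9 were tested, 6 were lower past the threshold and none higher, against the same shares, and the median was also -0.54. In the TPM fits the count was 1 and 2. Among them *Myh7b* (-0.98, 0.00539) and *Myh7* (-0.85, 0.0415, and 0.0873 with the block) are slow myosins and *Tnni1* (-0.54, 0.0219) is slow troponin I. *Casq1* and *Casq2* stood on these lists and on that of release and storage. The lower *Atp2a1* share of the pump pool therefore stood beside lower values in both fibre-type lists, with like medians, and a difference between the lists was not tested.

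The genes whose CPM ran most like that of each pump over the 6 libraries were found by Pearson correlation of log2(CPM + 1) among genes whose mean reached 5 CPM, as a description over points that share libraries. For *Atp2a1* they were *Mylf-ps* (r = 0.999), a pseudogene whose reads may come from its parent genes, *Ptpn21* (0.997) and *Ubr4* (0.995). For *Atp2a2* they were *Stk17b* (0.995), *Gm3375* (0.994) and *Ppan* (0.993), and for *Atp2a3* *Hcfc1r1* (0.993), *Ppib* (0.990) and *Ubl7* (0.990). Between the pumps r was 0.88 for *Atp2a1* with *Atp2a2*, -0.70 for *Atp2a1* with *Atp2a3* and -0.89 for *Atp2a2* with *Atp2a3*.

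**Figure D5:**
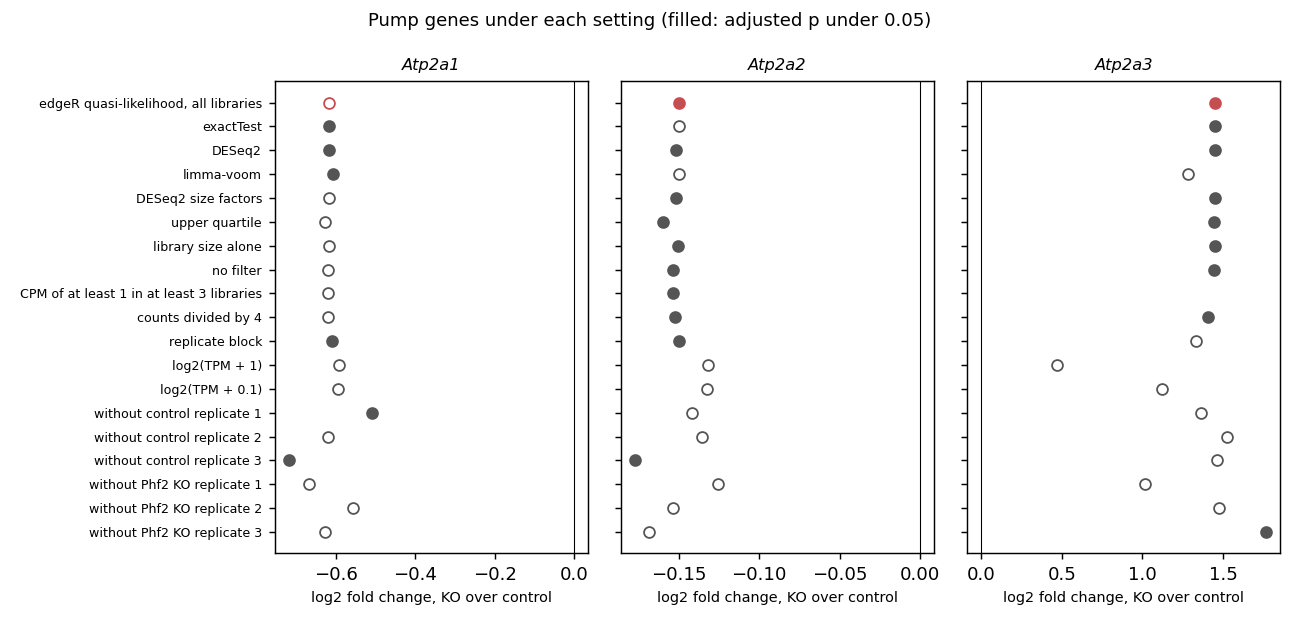
Log2 fold change of each pump gene under every setting, with filled points for an adjusted p under 0.05. Red marks only the main edgeR quasi-likelihood fit, which used all libraries, and the other settings are grey. The directions hold for every point plotted, and the side of the threshold changes with the setting for each of the 3 genes.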

How the data were processed

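RNA was sequenced from 3 control and 3 *Phf2* KO libraries of C2C12 cells, prepared with poly(A) selection and a directional kit and read at 150 bp. Per the labels and methods, the authors aligned reads to mm10 with HISAT2 and quantified them with StringTie; versions were not given in the sources used here. The matrix they deposited gives estimated counts, whole numbers not scaled by depth. The covered bases per count were 74.98 to 74.99, so a read pair makes about 4 counts. The deposited tables of each library hold TPM, a signal scaled by the authors within a library, of which the rows of reference genes were used. Low genes can differ between the matrix and these tables. The tables' coverage served only to find the unit of the counts.

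Low genes were removed with filterByExpr (minimum count 10) and TMM factors were computed. Groups were compared with the quasi-likelihood test of edgeR 4.0.16 in R 4.3.3, with its robust option. Benjamini-Hochberg adjustment ran over all genes tested, with a threshold of 0.05. A standard error given here is the size of the log2 fold change divided by the square root of the F statistic. For TPM shares the exact permutation test, two-sided, was used. Same-numbered libraries deviated together from their group means (correlations 0.25, 0.236 and 0.158 over 10923 genes), so the number was used as a block in an alternative fit. Differently numbered pairs had correlations of -0.238 to -0.013. Deviations from a group mean sum to 0, so these correlations are not independent of each other. Whether the numbers mark a true pairing was not tested. The alternatives were exactTest, DESeq2 1.42.0, limma-voom (limma 3.58.1), other scalings and filters, counts divided by 4, limma on log2(TPM + 1) and log2(TPM + 0.1), an adjusted p of 0.01, and leaving out each library.

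The members and gene lists were chosen with earlier results of these data known. Named list genes were at most 5 past the threshold with the largest change and at most 3 that did not pass with the highest CPM. *Rabep2* and *Cep85l* were named for their overlap, and *Sri*, *Jph2*, *Cacna2d1* and *Prkacb* after their values were seen. A planned blood marker is not reported here. No table of protein sequences was used here.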

Additional observations from a re-analysis of the deposited data

How the results depend on the processing

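Every setting kept the direction of *Atp2a1*, *Atp2a2* and *Atp2a3*, and the 3 other scalings (DESeq2's size factors, upper quartile and library size alone) kept their side of the threshold too. *Atp2a1* passed with exactTest (-0.62), DESeq2 (-0.62), limma-voom (-0.61) and the replicate block (-0.61), in 4 of 12 alternatives with all libraries, and missed the threshold in the other 8 with adjusted p up to 0.129. Without 1 library it passed in 2 of 6 fits, with log2 fold changes of -0.72 to -0.51 and adjusted p up to 0.201. *Atp2a2* no longer passed with exactTest (-0.15), limma-voom (-0.15), log2(TPM + 1) (-0.13) and log2(TPM + 0.1) (-0.13), and without 1 library it was -0.18 to -0.13. *Atp2a3* no longer passed with limma-voom (1.29), the replicate block (1.33), log2(TPM + 1) (0.47) and log2(TPM + 0.1) (1.12), did not pass a filter of 1 CPM in 3 libraries, and without 1 library was 1.01 to 1.77. The cause was not tested. *Sln* could not be fitted under any setting, and *Pln* only without the filter or a library, with adjusted p of 0.0753 to 0.257. The share of *Sln* in the summed regulators was 0 or undefined.

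The 1122 genes past the threshold became 127 with log2(TPM + 1), 153 with log2(TPM + 0.1), 472 at an adjusted p of 0.01 and 468 to 1039 without 1 library, with 468 without control replicate 2, 577 without KO replicate 2 and 613 without KO replicate 3. With the replicate block 1316 genes passed. The 28 lower genes of the calcium and fibre lists became 10 and 12 with the TPM fits. *Stim1* was -0.15 in both TPM fits. By counts per kb of exons the *Atp2a1* share differed by -6.57 percentage points. Depth limits *Atp2a3*, *Pln*, *Sln*, *Strit1*, *Mrln* and *Smim6*.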
